A study of Homo sapiens with 12 samples.

Results

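The peptidylarginine deiminases PADI1, PADI2, PADI3 and PADI4 are 4 of the 58735 genes in the deposited count table, taken by gene symbol and followed over all 12 libraries. The family was selected on measured values, since PADI4 was among the largest increases with bleomycin in wild type cells. The comparison of bleomycin with control medium in wild type cells is therefore given as a description, with no test. PADI6, the remaining human gene of the family, was added for context. The libraries were made from mRNA of Beas-2b cells, a human bronchial epithelial line immortalised with a viral oncogene. There were 4 groups of 3 biological replicates: ANT1 knockout (KO) cells with bleomycin, ANT1 KO cells in control medium, wild type cells with bleomycin and wild type cells in control medium. The KO was made by CRISPR, and the sources used here do not give the number of clones, so genotype and clone cannot be told apart. Bleomycin, which breaks DNA, was given at 10 mg/ml for 2 days to bring about senescence, and the series asks what ANT1, the mitochondrial adenine nucleotide translocase, does in that setting.

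Peptidylarginine deiminases need calcium and convert arginine residues of proteins into citrulline, which removes a positive charge and can loosen the folding or the contacts of the protein. PADI1 and PADI3 are known from the epidermis and hair follicle, where filaggrin and trichohyalin are their substrates. PADI2 is the most widely expressed member and modifies vimentin and myelin basic protein. PADI4 carries a nuclear localisation signal, citrullinates histones, is best known from neutrophils, in which it drives the release of chromatin traps, and has been described as a target of p53. PADI6 is a gene of the oocyte and early embryo.

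Library totals lay between 15.75 and 21.92 megacounts. A count of 0 in a library thus allowed a level of up to 0.137 to 0.190 counts per megacount (CPM), taking 3 counts as the limit. Such limits and the count intervals below cover counting error only. SLC25A4, the gene of ANT1, was between 4.09 and 6.97 CPM in the 6 KO libraries and between 16.1 and 27.5 CPM in the 6 wild type libraries, without overlap. ANT1 KO control replicate 2 stood apart, with 0.364% of its counts on mitochondrial genes, while the other 11 libraries held 3.86% to 5.13% there. Set against either group mate, it gave a chi-square averaged over genes of 114 or 105, and no other pair of replicates exceeded 16.8. The keratins KRT7, KRT8 and KRT18 were abundant in every group, and the summed level of 10 epithelial markers was 1952 to 2060 CPM in KO bleomycin, 1726 to 1826 CPM in KO control, 1783 to 2113 CPM in wild type bleomycin and 1560 to 1899 CPM in wild type control libraries. Other epithelial markers were low, with at most 2.49 CPM of EPCAM, 2.96 CPM of CDH1 and 0.917 CPM of TP63 in any library. The basal cell keratin KRT5 was nearly absent, with summed counts of 8 in KO bleomycin, 0 in KO control, 19 in wild type bleomycin and 3 in wild type control.

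The family lies in a cluster on chromosome 1. The deposited coordinates are the same as those of GENCODE 29 on GRCh38. PADI2 occupies 17066761 to 17119435 on the minus strand. On the plus strand follow PADI1 at 17205126 to 17246005, PADI3 at 17249098 to 17284233, PADI4 at 17308195 to 17364004 and PADI6 at 17372196 to 17401699. The intervals between neighbouring genes were 85.7 kb from PADI2 to PADI1, 3.09 kb from PADI1 to PADI3, 24.0 kb from PADI3 to PADI4 and 8.19 kb from PADI4 to PADI6. No annotated gene overlapped a member except MIR3972, which lies within PADI3 and had 11 counts in all 12 libraries together. The exons of the PADI genes shared 0 words of 50 bases with each other, so reads of that length without a mismatch could not be exchanged between members. With genes outside the family PADI4 shared 1.44% and PADI2 0.284% of their words.

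The 250 bases before the RefSeq start are shown for the gene with the largest increase, the gene that fell and the gene that passed no test, because the responses of the 3 genes differ. Capitals mark matches to 3 motifs on either strand. TATAAA is the core promoter element that helps to place the start of transcription. The second motif, TGACTCA, is the consensus bound by the AP-1 family of factors. The last one, GGGCGG, is the box bound by Sp1 and common in promoters rich in CpG, and its reverse complement is marked in the same way. Matches of different motifs did not overlap, and the motifs were chosen after the sequences had been seen. The sequences are from RefSeq on GRCh38.p14, read 5' to 3' on the strand of the gene: chr1:17307947-17308196 on the plus strand for PADI4, chr1:17119452-17119701 on the minus strand for PADI2 and chr1:17204878-17205127 on the plus strand for PADI1. PADI3 is not shown.
PADI4 promoter: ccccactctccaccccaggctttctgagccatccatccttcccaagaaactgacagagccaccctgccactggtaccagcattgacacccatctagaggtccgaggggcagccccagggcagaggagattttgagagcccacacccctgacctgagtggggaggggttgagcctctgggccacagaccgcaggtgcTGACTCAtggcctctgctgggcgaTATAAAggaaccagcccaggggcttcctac
PADI2 promoter: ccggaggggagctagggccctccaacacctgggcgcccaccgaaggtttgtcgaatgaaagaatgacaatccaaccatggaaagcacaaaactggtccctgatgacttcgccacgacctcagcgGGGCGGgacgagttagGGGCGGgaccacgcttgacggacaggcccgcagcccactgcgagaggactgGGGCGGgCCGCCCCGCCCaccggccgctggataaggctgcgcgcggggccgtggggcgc
PADI1 promoter: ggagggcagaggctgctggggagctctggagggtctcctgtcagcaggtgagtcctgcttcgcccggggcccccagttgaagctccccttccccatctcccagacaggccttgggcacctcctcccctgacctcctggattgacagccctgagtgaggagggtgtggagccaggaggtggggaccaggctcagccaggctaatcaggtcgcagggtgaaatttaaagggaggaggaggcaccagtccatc
The PADI4 window held 1 TATAAA, 30 bases before the start, and 1 TGACTCA, 54 bases before it, with 3 CpG dinucleotides and a GC content of 61.2%. The PADI2 window held 5 GGGCGG matches, between 126 and 47 bases before the start, with 24 CpG dinucleotides and a GC content of 68.0%. The PADI1 window held none of these motifs, 3 CpG dinucleotides and a GC content of 64.0%. Among 35116 RefSeq promoter windows of the same length, TATAAA occurred in 10.7%, TGACTCA in 4.20% and GGGCGG in 42.6%, and the median window had 11 CpG dinucleotides and a GC content of 58%. The p53 half-site consensus occurred in 5.57% of windows and in none of these 3, which says only that those letters are not in this stretch. A match is a description of the letters and not a binding site.

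In ANT1 KO cells, bleomycin was followed by far more PADI4 and PADI3 mRNA and by less PADI2 mRNA, while PADI1 stayed at a few counts per library. Of the 4 genes, 2 rose and 1 fell past an adjusted p of 0.05. Of the 16702 genes tested, 43.2% passed in this comparison, 22.5% higher and 20.7% lower, so a call alone is common here. All 4 genes passed the filter on low counts (0.544 CPM in 3 libraries), but PADI4 did so through its bleomycin libraries, since 1 of the 6 control libraries reached that level. The PADI4 test, and its place among the 2 increases, are therefore only a description. PADI1 reached the filter level in 5 libraries, 3 of them with bleomycin. P-values are from edgeR's quasi-likelihood test with Benjamini-Hochberg adjustment over all tested genes, and nothing beyond the labels' word biological says how separate the replicate cultures were. In bulk RNA a change in the number of cells that express a gene and a change in RNA per cell cannot be told apart.

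**Figure D1:**
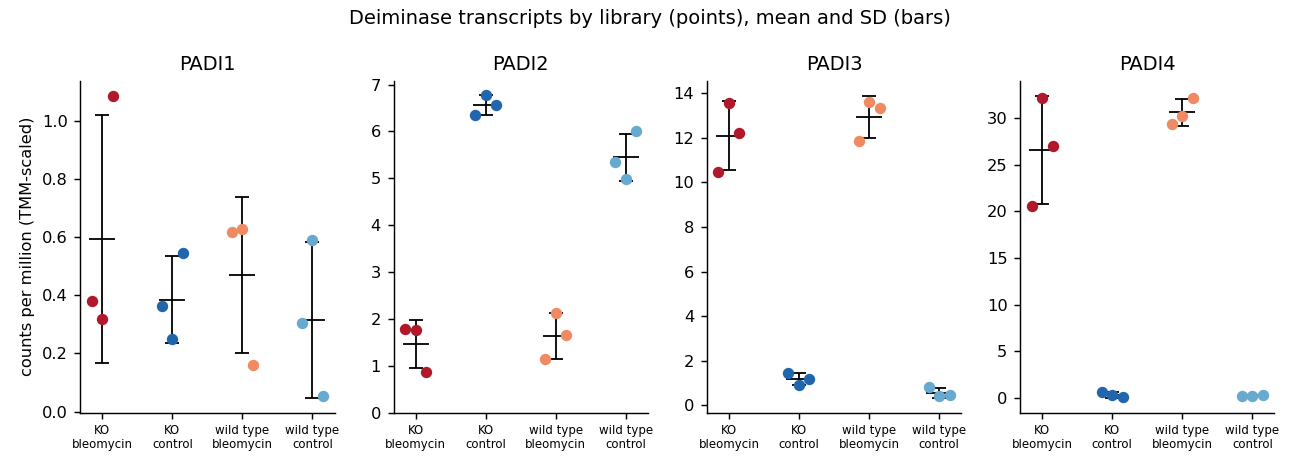
CPM of each PADI gene on a linear axis of its own, with 1 point per library, the group mean as a horizontal line and the SD as an error bar (n = 3); bleomycin groups stand left of their control groups. PADI4 and PADI3 are higher in all bleomycin libraries than in any control library, PADI2 is lower in all of them, and PADI1 overlaps between groups.

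PADI4 had 325, 605 and 497 counts in the KO bleomycin libraries, against 10, 4 and 1 counts in the KO control libraries. The groups were far apart, and KO control replicate 1 held most of the control reads. The level was 26.6 ± 5.78 CPM in KO bleomycin and 0.303 ± 0.279 CPM in KO control (SD, n = 3 each), with KO control replicates at 0.604, 0.249 and 0.0547 CPM around the limit of detection. PADI4 rose 88.1-fold, a log2 fold change of 6.46 (SE 0.34, 95% interval 5.73 to 7.20, edgeR adjusted p = 1.07e-08), higher in all 3 libraries. This placed it at position 98 among increases ordered by log2 fold change. PADI4 reached the filter through its bleomycin libraries, so its test and position are only a description. The ratio of summed counts per megacount, 1427 over 15, was 91.5, with an exact counting interval of 55.3 to 164. The fold depended on the few control reads: without KO control replicate 1 it was 174-fold. Without KO control replicate 3 it was smaller, with a log2 fold change of 5.93.

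PADI4 in wild type cells had 570, 528 and 603 counts with bleomycin, against 3, 5 and 5 counts in control medium. Levels were 30.6 ± 1.43 CPM in wild type bleomycin and 0.217 ± 0.0595 CPM in wild type control (SD, n = 3 each). All 3 bleomycin libraries were far above all 3 controls; 43.5% of all genes tested passed in this comparison, and nothing is read from it for the members. The ratio of summed counts per megacount was 142, with a counting interval of 82.7 to 267.

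PADI3 had 165, 255 and 225 counts in the KO bleomycin libraries, against 24, 15 and 22 counts in the KO control libraries. The groups did not overlap, and unlike PADI4 it reached the filter level in each KO control library. The mean was 12.1 ± 1.55 CPM in KO bleomycin and 1.20 ± 0.259 CPM in KO control (SD, n = 3 each). PADI3 rose 10.1-fold, a log2 fold change of 3.33 (SE 0.22, 95% interval 2.87 to 3.80, edgeR adjusted p = 6.70e-08), and stood at position 537 among increases. In wild type cells it had 230, 237 and 250 counts with bleomycin, against 16, 9 and 9 counts in control medium, or 12.9 ± 0.930 CPM with bleomycin and 0.570 ± 0.215 CPM in control medium (SD, n = 3 each), a 22.6-fold higher fitted level with bleomycin.

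PADI2, the widely expressed member, moved the other way. It had 28, 33 and 16 counts in the KO bleomycin libraries, against 105, 109 and 120 counts in the KO control libraries. Every bleomycin library was below every control library, and bleomycin replicate 3 was the lowest. The mean was 1.47 ± 0.517 CPM in KO bleomycin and 6.56 ± 0.218 CPM in KO control (SD, n = 3 each). PADI2 was 4.48-fold lower with bleomycin, a log2 fold change of -2.16 (SE 0.26, 95% interval -2.73 to -1.60, edgeR adjusted p = 2.43e-05), position 96 among decreases. In wild type cells the PADI2 counts were 22, 37 and 31 with bleomycin, against 105, 110 and 111 in control medium, a 3.33-fold lower fitted level with bleomycin.

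PADI1, the other epidermal member, had 6, 6 and 20 counts in KO bleomycin, against 6, 4 and 10 counts in KO control. It had 12, 11 and 3 counts in wild type bleomycin, against 6, 13 and 1 counts in wild type control. The groups overlapped throughout. The log2 fold change in KO cells was 0.61 (SE 0.69, 95% interval -0.88 to 2.11, edgeR adjusted p = 0.504), an interval that holds a fall as well as a rise, so a change of either kind within it was not detectable at this depth. The end of PADI1 lies only 3.09 kb before the start of PADI3, the gene that rose 10.1-fold.

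PADI6 was below the filter in every library and was not tested. It had 2, 10 and 3 counts in KO bleomycin and 0 counts in each KO control library. It had 6, 7 and 2 counts in wild type bleomycin and 0 counts in each wild type control library. Each control group was taken at a limit of 3 counts and the bleomycin counts as exact. The level with bleomycin was then 4.81-fold higher in KO cells and 5.42-fold higher in wild type cells. The exact counting interval started lower, at 3.45-fold in KO cells and 3.89-fold in wild type cells. These ratios depended on single libraries. In KO cells the ratio was 2.49 without KO bleomycin replicate 2, which held most of the reads, with the interval starting at 1.37. It was 3.08 without KO control replicate 3. In wild type cells the ratio was 3.44 without wild type control replicate 2.

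**Figure D2:**
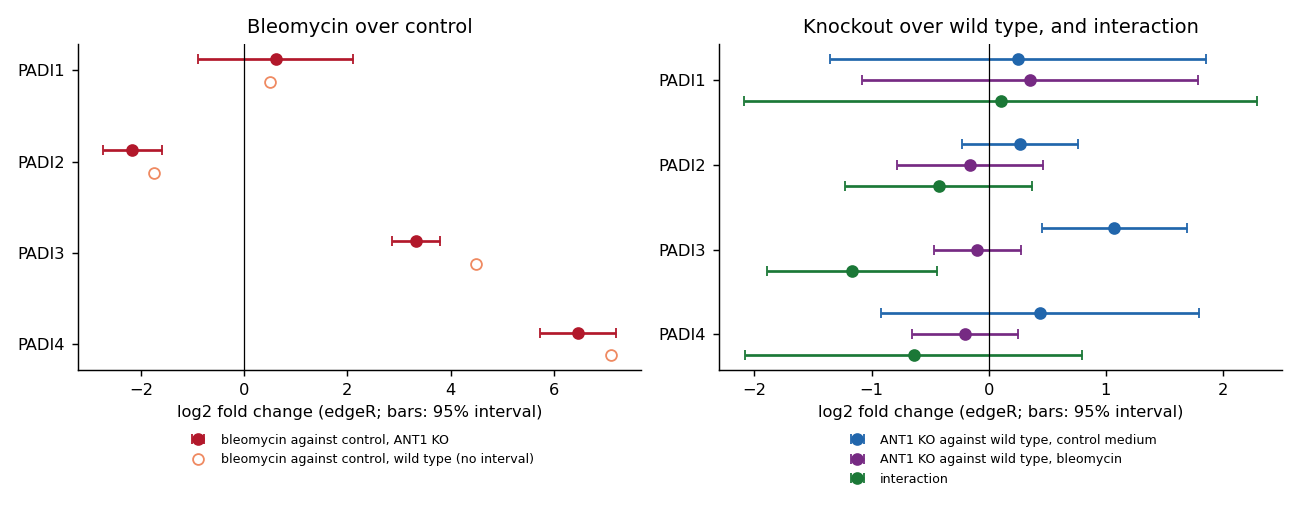
Left, log2 fold change of bleomycin over control medium for each PADI gene, with the 95% interval for ANT1 KO cells (filled) and without one for wild type cells (open). Right, log2 fold change of ANT1 KO over wild type in each medium and the interaction, with 95% intervals; the interval of PADI3 runs from 0.45 to 1.69 in control medium and from -1.89 to -0.44 for the interaction, before any adjustment over genes, and all others cross 0.

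Levels of different genes were compared by the authors' FPKM, which divides by gene length. The summed FPKM of the 5 genes was 13.1 ± 2.54 in KO bleomycin, 1.64 ± 0.123 in KO control, 14.7 ± 0.704 in wild type bleomycin and 1.22 ± 0.0618 in wild type control libraries (SD, n = 3 each). PADI4 made up 67.5% of that sum in KO bleomycin, against 5.95% in KO control, and 69.4% in wild type bleomycin, against 5.97% in wild type control. PADI3 made up 28.9% in KO bleomycin, against 22.5% in KO control, and 27.3% in wild type bleomycin, against 14.5% in wild type control. PADI2 made up 1.92% in KO bleomycin, against 66.7% in KO control, and 1.83% in wild type bleomycin, against 74.2% in wild type control. PADI2 thus had the highest FPKM of the family in all 6 control libraries and PADI4 in all 6 bleomycin libraries. Leaving PADI6 aside, the order in control medium was PADI2, PADI3 and then PADI4 and PADI1, whose values overlapped. With bleomycin it was PADI4, PADI3, PADI2 and PADI1, with PADI2 and PADI1 overlapping in KO cells, where PADI2 replicate 3 was at 0.144 FPKM and PADI1 replicate 3 at 0.220 FPKM.

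**Figure D3:**
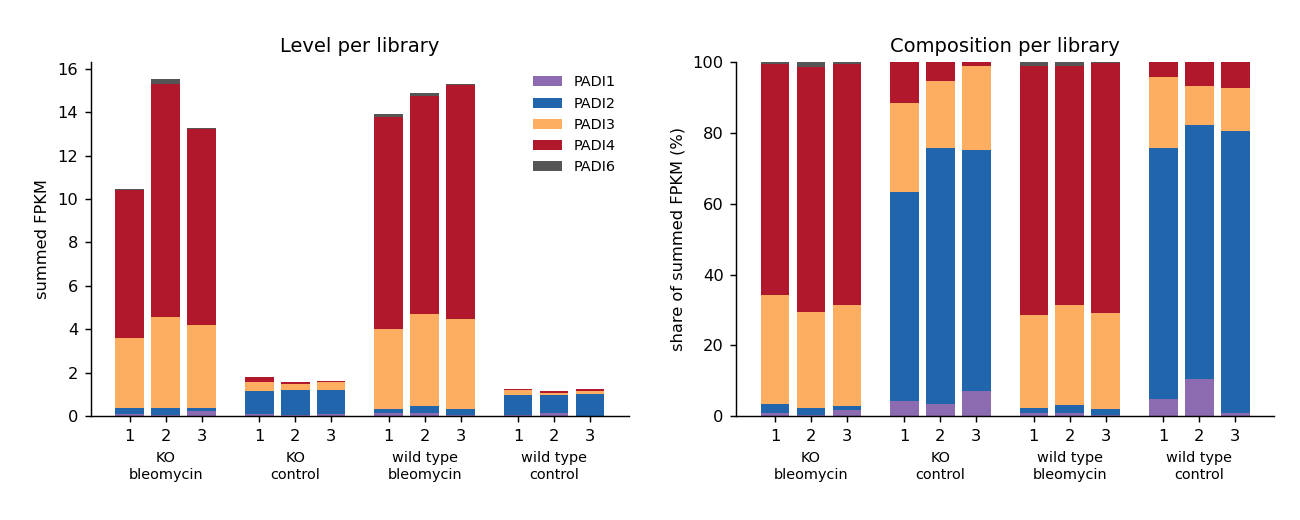
Left, FPKM of the 5 PADI genes stacked for each library, and right, the same as percent of their sum, with bleomycin groups left of their control groups and replicates numbered below the bars. The sum lies between 10.5 and 15.5 FPKM in the 6 bleomycin libraries and between 1.15 and 1.79 FPKM in the 6 control libraries, with PADI4 the largest part with bleomycin and PADI2 in control medium.

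The ratio of PADI4 to PADI3 FPKM was narrow among bleomycin libraries, 2.11 to 2.55 in KO cells and 2.39 to 2.66 in wild type cells. In control medium, where PADI4 rests on 1 to 10 counts, it was 0.0488 to 0.447 in KO cells and 0.201 to 0.596 in wild type cells. PADI4 fell short of PADI3 in every control library and exceeded it in every bleomycin library.

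Between genotypes, 0 of the 4 genes passed the edgeR test in any comparison, or with DESeq2, and PADI3 alone had an unadjusted p under 0.05. In control medium, 0.168% of all genes tested passed. PADI3 was 1.45, 0.933 and 1.20 CPM in KO control libraries, against 0.814, 0.409 and 0.486 CPM in wild type control libraries, and the groups did not overlap. The log2 fold change of KO over wild type was 1.07 (SE 0.29, 95% interval 0.45 to 1.69), with an unadjusted p of 0.00250 from edgeR that was 0.227 after adjustment over all genes. Without KO control replicate 2 the edgeR adjusted p was 0.0742, so the difference missed the threshold with and without that library. The summed counts were 61 in KO control and 34 in wild type control, a ratio per megacount of 2.12 with a counting interval of 1.37 to 3.33. PADI4 differed by 0.44 (SE 0.63), PADI2 by 0.27 (SE 0.23) and PADI1 by 0.25 (SE 0.74) on the log2 scale, with edgeR adjusted p of 0.792, 0.654 and 0.909, and their intervals held 0.

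With bleomycin, 0.0479% of all genes tested differed between genotypes. PADI4 differed by -0.20 (SE 0.21, 95% interval -0.65 to 0.25) and PADI3 by -0.10 (SE 0.17, 95% interval -0.47 to 0.28) on the log2 scale. PADI2 differed by -0.16 (SE 0.29, 95% interval -0.78 to 0.46) and PADI1 by 0.35 (SE 0.66, 95% interval -1.08 to 1.79), and the edgeR adjusted p was 0.999 for each of the 4. For PADI4 and PADI3 these intervals were narrow beside the response to bleomycin, but they do not show equal levels.

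The log2 response to bleomycin in KO cells less the log2 response in wild type cells was -1.17 for PADI3 (SE 0.33, 95% interval -1.89 to -0.44). Its unadjusted p was 0.00402 and its edgeR adjusted p 0.899, and the term uses the wild type libraries in which the family was first noticed. For PADI4 it was -0.64 (SE 0.67), for PADI2 -0.43 (SE 0.37) and for PADI1 0.10 (SE 1.01), with edgeR adjusted p of 0.899, 0.899 and 0.992. Of all genes tested, 0% passed by edgeR, with 770 genes at an unadjusted p under 0.05, and DESeq2 called 4 genes, none of them a member. PADI3 averaged 12.1 CPM in KO bleomycin and 12.9 CPM in wild type bleomycin, against 1.20 CPM in KO control and 0.570 CPM in wild type control. As the PADI3 term did not pass, no difference in response is read from these means.

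Other genes around the cluster moved in both directions and by less than PADI4 and PADI3. Within 500 kb on either side of the cluster lay 37 other genes, of which 9 had 0 counts in all libraries and 14 were tested. In KO cells 3 rose and 4 fell with bleomycin, against 22.5% and 20.7% of all genes, and their log2 fold changes lay between -1.59 and 1.86. Of the 7 protein-coding ones, MFAP2, a protein of elastic microfibrils, rose (log2 fold change 0.94), and CROCC, a ciliary rootlet protein, RCC2, a regulator of mitosis, and NBPF1 fell (-1.11, -0.51 and -0.40). ATP13A2, a lysosomal polyamine transporter, SDHB, a subunit of succinate dehydrogenase, and ARHGEF10L were at -0.28, -0.11 and -0.52 and did not pass. Without KO control replicate 2 the increase of MFAP2 no longer passed (0.90, edgeR adjusted p = 0.0660). CROCC, RCC2 and NBPF1 still fell without it but by less (-0.38, -0.25 and -0.24).

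**Figure D4:**
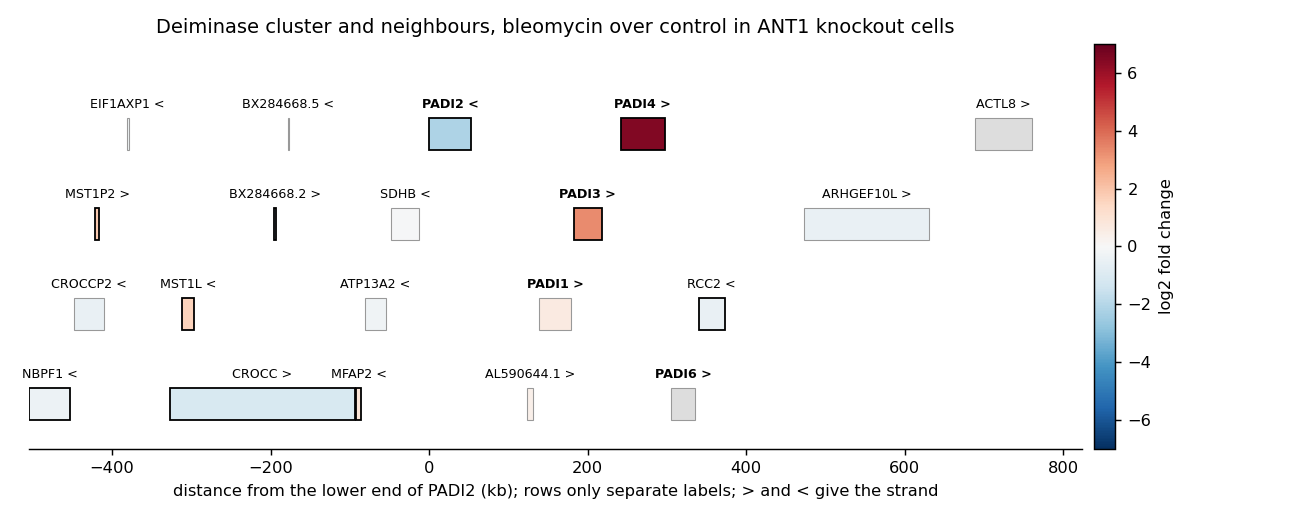
Genes within 500 kb of the PADI cluster that are protein-coding or were tested, drawn by distance in kb from the lower end of PADI2 and coloured by log2 fold change of bleomycin over control in ANT1 KO cells; black outlines mark an adjusted p under 0.05 and grey boxes genes not tested. PADI4 at 6.46 and PADI3 at 3.33 are the darkest red boxes and PADI2 at -2.16 the darkest blue, and the other genes lie between -1.59 and 1.86.

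The genes whose log2 CPM followed each member most closely over the 12 libraries were found by Pearson's correlation, as a description. The 12 libraries share the contrast between bleomycin and control medium. PADI4 was followed by RNASE7, an antimicrobial ribonuclease of epithelia (r = 0.996), HMCN2, IGDCC4, CLCA2, a membrane protein of stratified epithelia described as a p53 target, and LCN15. RNASE7 averaged 8.14 CPM in KO bleomycin, 0.0812 CPM in KO control, 12.1 CPM in wild type bleomycin and 0.0151 CPM in wild type control. PADI3 was followed by MTHFD2, a mitochondrial enzyme of folate metabolism (r = 0.994), the small heat shock protein HSPB8, the transcription factor CEBPG, SERPINB5 (maspin) and ASTN2. MTHFD2 was 222.7 CPM in KO bleomycin and 138 CPM in KO control, so genes of this pattern differed widely in size. PADI2 was followed by HSD17B11, a lipid droplet dehydrogenase (r = 0.982), SYT12, OIP5, a centromere protein, GALNT6, an enzyme of mucin-type glycosylation, and NIF3L1. For PADI1 the highest value was 0.826, for MFSD8, followed by PCDHGB6, ZNF280B, ANKRD6 and CDC16, and with 1 to 20 counts per library it carries little information. Between members, r was 0.971 for PADI4 with PADI3 and -0.941 for PADI4 with PADI2.

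Substrates of the enzymes were read from a list of epidermal and structural proteins and a list of mainly nuclear and cytosolic ones. Of 20 epidermal and structural substrates 12 were tested, and in KO cells 7 rose and 1 fell with bleomycin, where 22.5% of all genes tested rose and 20.7% fell. The median log2 fold change was 0.55, against 0.00 over all genes. FLG2, the filaggrin-like protein of the upper epidermis, rose 8.37-fold, with 9.76 ± 1.31 CPM in KO bleomycin and 1.16 ± 0.0947 CPM in KO control (SD, n = 3 each, edgeR adjusted p = 4.91e-07). HRNR, hornerin, rose 4.55-fold, with 31.1 ± 10.2 CPM in KO bleomycin and 6.86 ± 3.43 CPM in KO control (edgeR adjusted p = 0.000301). FLG, filaggrin, had 131 ± 30.0 CPM in KO bleomycin and 45.8 ± 19.3 CPM in KO control, a 2.85-fold increase (edgeR adjusted p = 0.000402). MBP, myelin basic protein, rose 1.65-fold (edgeR adjusted p = 0.000138). KRT10, VIM and COL2A1 were the other increases. COL2A1 had 31 counts in KO bleomycin and 0 in KO control, 9.94-fold higher with KO control taken at 3 counts. Since all of these reads came from bleomycin libraries, the COL2A1 call among the 7 increases is only a description. TCHH, trichohyalin, did not pass, with 1.59 ± 0.249 CPM in KO bleomycin and 1.63 ± 0.285 CPM in KO control. The decrease was COL1A1, a collagen chain (log2 fold change -1.51, edgeR adjusted p = 0.0498), which without KO control replicate 2 was -0.19 with an edgeR adjusted p of 0.660.

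Of 17 mainly nuclear and cytosolic substrates, all tested, 2 rose and 3 fell in KO cells, no larger a share than the 43.2% of all genes that passed. The list also holds secreted chemokines, CXCL8 and CXCL10. The median log2 fold change was -0.22. The chemokine CXCL8 rose 4.92-fold, with 804 ± 88.9 CPM in KO bleomycin and 163 ± 12.6 CPM in KO control (SD, n = 3 each, edgeR adjusted p = 2.54e-08). ACTB, beta-actin, and ENO1, alpha-enolase, fell with log2 fold changes of -0.69 and -0.94 (edgeR adjusted p = 8.23e-05 and 0.000463). ING4, a chromatin reader, rose by 0.30, and DNMT3A, a DNA methyltransferase, was at -0.35 and was the third decrease. The variant histone H3 genes H3F3A and H3F3B, which encode the classic nuclear substrate of PADI4, were at -0.32 and -0.22 and did not pass. Without KO control replicate 2 the counts were 3 higher and 4 lower: LMNA and H3F3A (log2 fold change -0.56) and CXCL10 passed and DNMT3A did not.

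**Figure D5:**
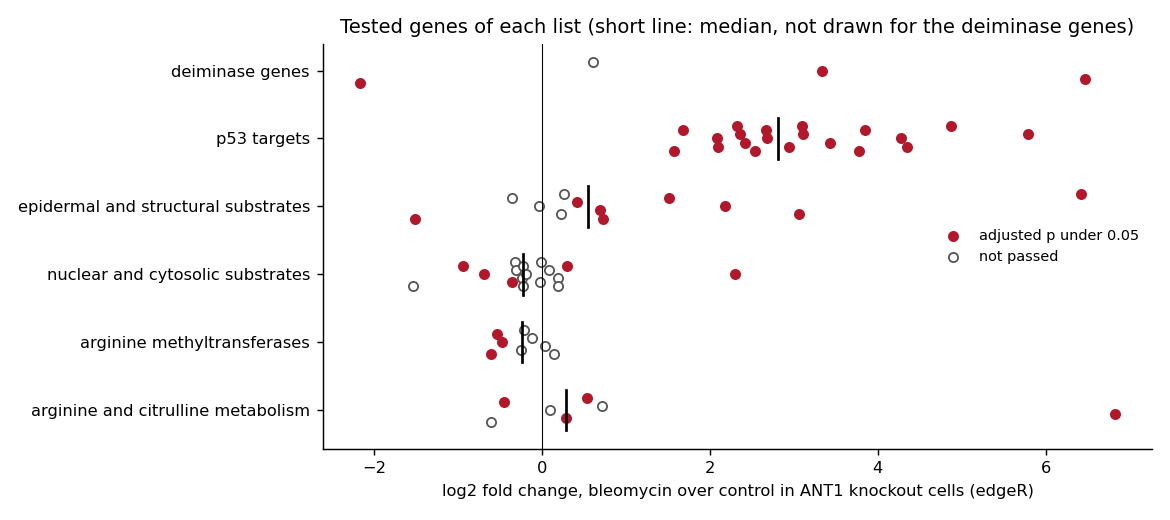
Log2 fold change of bleomycin over control in ANT1 KO cells for each tested gene of 6 lists, filled where the adjusted p was under 0.05, with the list median as a short line except for the deiminase genes. The p53 targets lie between 1.57 and 5.79 and the substrate lists on both sides of 0; the fitted values of COL2A1 and NOS1, the rightmost points of their lists, rest on 0 control counts and are no measure of size.

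Because PADI4 has been described as a p53 target, 20 such targets were read beside it. All 20 rose in KO cells with bleomycin, against 22.5% of all genes, with a median log2 fold change of 2.81. The list was chosen with earlier results of these data known, so this count is a description and no support. The lowest was BAX, a pore-forming death protein, at 1.57, and the highest GDF15, a secreted stress cytokine, at 5.79. The cell cycle inhibitor CDKN1A had 4152 ± 194 CPM in KO bleomycin and 142 ± 10.8 CPM in KO control (SD, n = 3 each, log2 fold change 4.87, edgeR adjusted p = 1.52e-11). MDM2, the ligase that degrades p53, was at 4.27, and BTG2, an antiproliferative gene, at 3.78. On the log2 scale PADI4 at 6.46 was above each of the 20, and PADI3 at 3.33 was within their range. The family was selected for a large PADI4 increase in wild type cells, and PADI4 had 15 summed counts in KO control. Its place above the targets is therefore only a description. The part of p53 in the PADI4 values was not tested.

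Since PADI4 is best known from granulocytes, 15 leukocyte markers were read. Only ITGAM, CXCR2 and CD14 had enough counts to be tested. ITGAM and CXCR2 reached the filter through their bleomycin libraries, so their fold changes rest on few control counts and their tests are only a description. ITGAM, an integrin chain of myeloid cells, had 255 counts in KO bleomycin and 2 in KO control, and rose with a log2 fold change of 6.70 (SE 0.50, edgeR adjusted p = 1.17e-06). CXCR2, a receptor for CXCL8 found on neutrophils and some epithelia, had 132 counts in KO bleomycin and 5 in KO control, and rose with a log2 fold change of 4.58 (SE 0.48, edgeR adjusted p = 7.15e-06). CD14, a coreceptor for bacterial lipopolysaccharide, fell, with 3.71 ± 1.42 CPM in KO bleomycin and 34.1 ± 5.92 CPM in KO control (SD, n = 3 each, edgeR adjusted p = 2.47e-07). The other listed markers were too low to be tested, with at most 0.598 CPM in any library. The pan-leukocyte gene PTPRC had 10 counts in KO bleomycin, 0 in KO control, 16 in wild type bleomycin and 2 in wild type control. MPO, the granule peroxidase, had 3 counts in KO bleomycin, 0 in KO control, 4 in wild type bleomycin and 0 in wild type control. ELANE, neutrophil elastase, had 0 counts in KO bleomycin, 10 in KO control, 2 in wild type bleomycin and 8 in wild type control. The part of cells of another kind in the PADI4 values was not tested. The summed level of the 15 markers was 10.5 to 14.8 CPM in KO bleomycin, 30.4 to 42.0 CPM in KO control, 11.0 to 11.9 CPM in wild type bleomycin and 19.7 to 24.4 CPM in wild type control libraries. In KO control most of that sum was CD14, while ITGAM and CXCR2 rose with bleomycin, so the sum does not describe the other markers. Of 8 fibroblast and endothelial markers 3 were tested: PDGFRB and CDH5 fell (log2 fold changes -1.95 and -1.75), VWF did not pass, and LUM had 0 counts in all libraries. Of the 10 epithelial markers 9 were tested, and 5 rose and 3 fell in KO cells, where 22.5% of all genes rose and 20.7% fell. The log2 fold changes were 0.65 for KRT7, 1.54 for KRT19 and 1.27 for SFN among the increases and -0.93 for KRT18 among the decreases. Without KO control replicate 2 there were 4 increases, since TP63 no longer passed (edgeR adjusted p = 0.0863).

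Protein arginine methyltransferases modify the same residue as the deiminases. Of 9 listed genes 8 were tested, and in KO cells 0 rose and 3 fell with bleomycin, a share near the 43.2% of all genes that passed. The median log2 fold change was -0.23. PRMT2 had 92.6 ± 1.03 CPM in KO bleomycin and 134 ± 10.4 CPM in KO control (SD, n = 3 each, log2 fold change -0.53, edgeR adjusted p = 0.000214). CARM1, the histone methyltransferase and coactivator, had 52.3 ± 2.23 CPM in KO bleomycin and 72.9 ± 4.01 CPM in KO control (log2 fold change -0.48, edgeR adjusted p = 0.000818). PRMT6 fell by 0.60 on the log2 scale (edgeR adjusted p = 0.0443), and without KO control replicate 2 it did not pass and PRMT1 did, at -0.60. In wild type cells PRMT2 averaged 89.9 CPM with bleomycin and 126 CPM in control medium, and CARM1 47.6 CPM with bleomycin and 83.2 CPM in control medium.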

How the data were processed

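The authors deposited raw counts and FPKM values per gene for 12 libraries. Per the submitters' processing notes the tools included HISAT2 2.0.5 and featureCounts 1.5.0-p3. The genome build and the strand setting are not stated in any source used here, and reads of overlapping or antisense genes may be mixed. The deposited FPKM divides by a gene length equal to the merged exons.

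From the deposited counts, edgeR's quasi-likelihood test was run on TMM-scaled libraries after filterByExpr, which left 16702 genes, in 1 fit of 4 group means. The 5 contrasts used Benjamini-Hochberg adjustment and a threshold of 0.05. Contrasts share libraries. SE is the absolute log2 fold change over the root of F. CPM uses TMM-scaled totals. Count intervals are exact binomial. The script was tested on simulated data.

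Members and lists were chosen with earlier results of these data known, and the p53 and marker lists resemble ones used in them. Named genes are the members, the protein-coding tested neighbours, the 5 genes most like each member and, per list, up to 4 with the smallest adjusted p. Other list genes were named after their values were seen. Alternatives were DESeq2, limma on log2(FPKM + 1) and on log2(FPKM + 0.1), other scaling and filters, a replicate block and each library left out.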

Additional observations from a re-analysis of the deposited data

How the results depend on the processing

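The bleomycin increases of PADI4 and PADI3 and the decrease of PADI2 kept their direction and their call under all 21 alternatives in KO cells. PADI4 in KO cells ranged from 5.93 to 7.45 on the log2 scale when each library was left out. With limma on log2(FPKM + 1) the log2 fold changes in KO cells were 3.15 for PADI4, 1.79 for PADI3 and -0.75 for PADI2, since the pseudocount is large beside these levels. PADI3 in KO against wild type control cells ranged from 0.87 to 1.40, with adjusted p from 0.0742 to 0.629, and DESeq2 gave 0.0857. PADI1 and PADI4 got no value where the filter dropped them.

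Values that turned were all uncalled and rest on few counts, and their cause was not tested further. Without single libraries PADI1 ranged from -0.15 to 0.95 with bleomycin in KO cells (lowest without KO bleomycin replicate 3), from -0.21 to 1.07 between genotypes in control medium (lowest without wild type control replicate 3) and from -0.43 to 0.67 between genotypes in bleomycin (lowest without KO bleomycin replicate 3). The PADI1 interaction was -0.0079 with limma on log2(FPKM + 0.1) and ranged from -0.71 to 0.56 without single libraries. PADI4 ranged from -0.55 to 0.97 between genotypes in control medium and from -1.17 to 0.35 for the interaction, and both turned without KO control replicate 1. PADI2 between genotypes in bleomycin ranged from -0.37 to 0.11, and turned without KO bleomycin replicate 3 and without wild type bleomycin replicate 2.

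The numbers of all genes that differed between genotypes depended on the method. In control medium 28 became 321 with no filter, 209 with DESeq2, 14 with limma at either pseudocount, 0 with only the groups compared and 0 to 175 without single libraries, the highest without KO control replicate 2. In bleomycin 8 became 81 with no filter, 88 with DESeq2, 28 and 4 with limma at pseudocounts of 1 and 0.1, 312 with only the groups compared and 2 to 294 without single libraries, the highest also without KO control replicate 2. For the interaction 0 became 13 with no filter, 4 with DESeq2 and 0 to 9 without single libraries. A replicate block gave 11 genes for control medium and 4 for bleomycin, and the PADI calls did not change. Same-numbered libraries did not deviate together (r from -0.128 to 0.109 over 18 pairs, and 1 of 12 libraries was closest to its own number). No pairing by number was thus seen, but with 3 libraries per group this cannot exclude one. The lists and neighbours without KO control replicate 2 were an alternative chosen after seeing the data.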

Other observations

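Among the 3 listed enzymes close to the deiminases in protein fold, 0 rose and 1 fell in KO cells with bleomycin. Of all genes tested 22.5% rose and 20.7% fell, so 1 call among 3 genes is no result about the fold. Listed enzymes that make and use free citrulline moved in both directions. Of 3 amidinotransferase-fold relatives, DDAH2, named as a hydrolase of methylated arginine, fell in KO cells with bleomycin. DDAH2 had 21.0 ± 0.848 CPM in KO bleomycin and 47.6 ± 19.8 CPM in KO control (SD, n = 3 each, log2 fold change -1.18, edgeR adjusted p = 0.000624). DDAH1 was at 0.01 and GATM, of creatine synthesis, at -0.61, and neither passed. Of 12 genes of arginine and citrulline metabolism 7 were tested, and 3 rose and 1 fell, where 22.5% of all genes tested rose and 20.7% fell. NOS1, a nitric oxide synthase, had 40 counts in KO bleomycin and 0 in KO control, 12.8-fold higher with KO control taken at 3 counts. Since all of these reads came from bleomycin libraries, the NOS1 call among the 3 increases is only a description. ASS1 and ASL, which turn citrulline into arginine, rose by 0.54 and 0.28 on the log2 scale (edgeR adjusted p = 0.0168 and 0.0424). CPS1, which feeds citrulline synthesis, fell, with a log2 fold change of -0.46 (edgeR adjusted p = 0.0169). Without KO control replicate 2, 2 genes of this list fell, since SLC7A2, a transporter of cationic amino acids, passed as well.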
